A study of Homo sapiens with 17 samples.

Results

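The 77 autosomal genes that encode proteins of the cytosolic ribosome were examined by symbol, out of 19970 protein-coding genes on the autosomes and the X chromosome. The symbols were RPL or RPS with a number and an optional A, X, L or P, together with RPLP0, RPLP1, RPLP2 and RPSA. They comprised 43 genes of the large subunit, 31 of the small subunit and 3 of the stalk. The cells were HCC1954, an established HER2-positive breast cancer line, transfected with antisense oligonucleotides and, for immunoprecipitation, fixed 72 hours later. The labels name the arms NC1235 and Si1235 without spelling out NC or Si, and LINC01235, a long non-coding RNA, is in the title of the series. Chromatin immunoprecipitation and sequencing gave 2 peak lists per arm for the histone variant H2AZ and for the histone marks H3K27ac and H3K36me3, and 1 per arm for H3K9ac. A further list came from chromatin isolation by RNA purification (ChIRP) of the NC1235 arm, whose labels leave the captured RNA unnamed. No time after transfection is given for the ChIRP sample. All groups are 1 cell line, no RNA level was measured in the files used here, and nothing in the labels ties replicates to separate cultures. The p-values therefore measure only how these libraries vary, and that may be technical variation.

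Ribosomal protein genes are among the most strongly transcribed genes of growing cells, and their products are needed in equal amounts. Most of their transcripts begin with a C followed by a run of pyrimidines, the 5′ terminal oligopyrimidine (TOP) motif, through which growth signals control translation. H2AZ lies in nucleosomes beside active starts, H3K27ac and H3K9ac are acetyl marks of active promoters, and H3K36me3 is laid down over the bodies of genes as they are transcribed. In what follows, cover is the percent of a window that lies under peaks, and a start window is 1 kb on either side of the gene start.

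Runs of pyrimidines lie at or near most of the member starts. RefSeq promoters of GRCh38.p14 were matched for 60 of the 77 genes, and the sequences below run from 60 bases before the start to 15 bases from it, 5′ to 3′ on the gene's strand. Capitals mark the longest run of C and T that overlaps the bases within 5 of the start, where it has at least 5 bases. The first 4 belong to genes with a large difference between arms, the next 3 to genes known for translational control or anaemia, and the last 2 to paralogs with no such run.
RPLP1, chr15:69452758-69452832, plus strand: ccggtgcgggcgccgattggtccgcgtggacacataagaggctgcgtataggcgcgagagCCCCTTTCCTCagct
RPL27A, chr11:8682732-8682806, plus strand: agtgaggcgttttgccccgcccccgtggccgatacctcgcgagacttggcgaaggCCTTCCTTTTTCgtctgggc
RPL41, chr12:56116573-56116647, plus strand: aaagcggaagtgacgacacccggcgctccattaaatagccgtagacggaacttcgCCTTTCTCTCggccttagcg
RPL34, chr4:108620516-108620590, plus strand: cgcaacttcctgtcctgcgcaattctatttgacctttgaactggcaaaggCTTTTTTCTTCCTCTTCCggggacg
RPS6, chr9:19380222-19380296, minus strand: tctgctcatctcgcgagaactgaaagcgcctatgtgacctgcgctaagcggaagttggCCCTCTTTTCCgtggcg
RPS19, chr19:41860195-41860269, plus strand: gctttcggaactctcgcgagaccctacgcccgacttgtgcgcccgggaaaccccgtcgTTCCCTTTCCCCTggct
RPL13A, chr19:49487548-49487622, plus strand: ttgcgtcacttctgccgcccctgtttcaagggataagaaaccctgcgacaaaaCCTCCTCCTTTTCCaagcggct
RPS27L, chr15:63157463-63157537, minus strand: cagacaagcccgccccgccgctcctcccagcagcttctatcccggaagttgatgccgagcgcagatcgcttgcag
RPL10L, chr14:46651767-46651841, minus strand: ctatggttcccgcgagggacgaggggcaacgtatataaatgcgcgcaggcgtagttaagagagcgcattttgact

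A run of at least 5 bases was present at 51 of the 60 member starts (85%), against 35.2% of 15811 promoters of all protein-coding genes with a listed start. This count is wider than the TOP motif, since no C was required at the start. At RPL6, RPL17 and RPL19 the run ended before the start. It began 4 or 5 bases after the start at RPL4, RPL9 and RPL11, and 1 or 2 bases after it at RPL10A, RPS26 and RPS28. A run of at least 10 bases was present at 40 members (66.7%), against 6.13% of all. The median run was 11 bases in members and 4 bases over all genes. The letters CGGAAG, the core bound by ETS factors, were found on either strand of the 300-base promoter in 37 members (61.7%) and in 25.5% of all promoters, as in RPL41 and RPS6 above. TATAAA was found in 10% of members and 9.75% of all, and the SP1 letters GGGCGG in 55% and 58.3%. These are matches of letters only.

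The labelled cell type was checked on H3K27ac. The epithelial genes ERBB2, EPCAM, KRT8, KRT18, KRT5 and CDH1 had peaks at their starts in 4 of 4 libraries, whereas the leukocyte gene PTPRC, the endothelial gene PECAM1 and the collagen gene COL1A2 had them in 0 of 4. CD3E, CDH5 and COL1A1, markers of other cells, also had peaks in 4 of 4 libraries. Their cover was partial, at 39.2%, 20.3% and 13.6%, against 72.4% to 100% at the epithelial genes. The presence of a peak alone therefore did not set the epithelial genes apart from them. Lists held 42759 to 81320 peaks for the 4 chromatin marks. The replicate 2 lists of H2AZ covered 37.7 Mb (NC1235) and 35.8 Mb (Si1235), less than the 45.5 and 44.8 Mb of replicate 1. The NC1235 H3K27ac lists stood apart from the others in that their read pileups were whole numbers at 0.733% and 12.7% of the peaks examined, against 100% in every other list.

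Nearly every ribosomal protein gene carried all promoter marks. H3K27ac peaks lay in the start window of 75 of 77 members in each of the 4 libraries, and H2AZ peaks in 73 to 75. The median member had 89.8% of its start window under H3K27ac, averaged over libraries, and 98.2% under H3K9ac, against 74.6% and 85.8% for all genes with mean cover of at least 5%. For H2AZ the medians were 56.8% in members and 73.5% over such genes. Of the members, 18 were covered from end to end of the window by H3K27ac in all 4 libraries, among them RPLP0, RPS12, RPS18, RPS19, RPS25 and RPS29, and 37 by H3K9ac in both. These window values include neighbouring genes in 33 members, whose windows hold another annotated gene. Within the 44 that hold none, the medians were 88% for H3K27ac and 54.5% for H2AZ.

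The median positions of the marks differed along the member genes, shown in the plot of peaks around starts. H2AZ came first, with its highest share before the start. Its highest share of the 60 members with a listed start was 91.7% to 95%. That share was reached 375 to 525 bases before the start in the 4 libraries. Over all genes with a listed start the highest share lay 125 to 175 bases after it. H2AZ was found after the start in members too. At 125 bases after it, peaks were on 73.3% to 88.3% of the 60 members, against 59.1% to 62.5% of all genes. The summit of the leading H2AZ peak lay before the start, at median positions of -323 and -342 bases in NC1235 replicates 1 and 2 and of -352 and -357 bases in those of Si1235. H3K27ac followed, with summits at medians of 182 to 214 bases after the start and downstream of it in 53 to 56 of 75 members, and then H3K9ac at 356 and 358 bases after it. Among the 60 members with a listed start, H3K36me3 was on 0% from 325 bases before to 325 bases after the start in every library. It was on 91.7% of them 2025 bases after the start in every library, against 6.78% to 10.2% of all genes. Of all 77 members, 1 without a listed start had mean H3K36me3 cover of at least 50% of its start window.

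**Figure D1:**
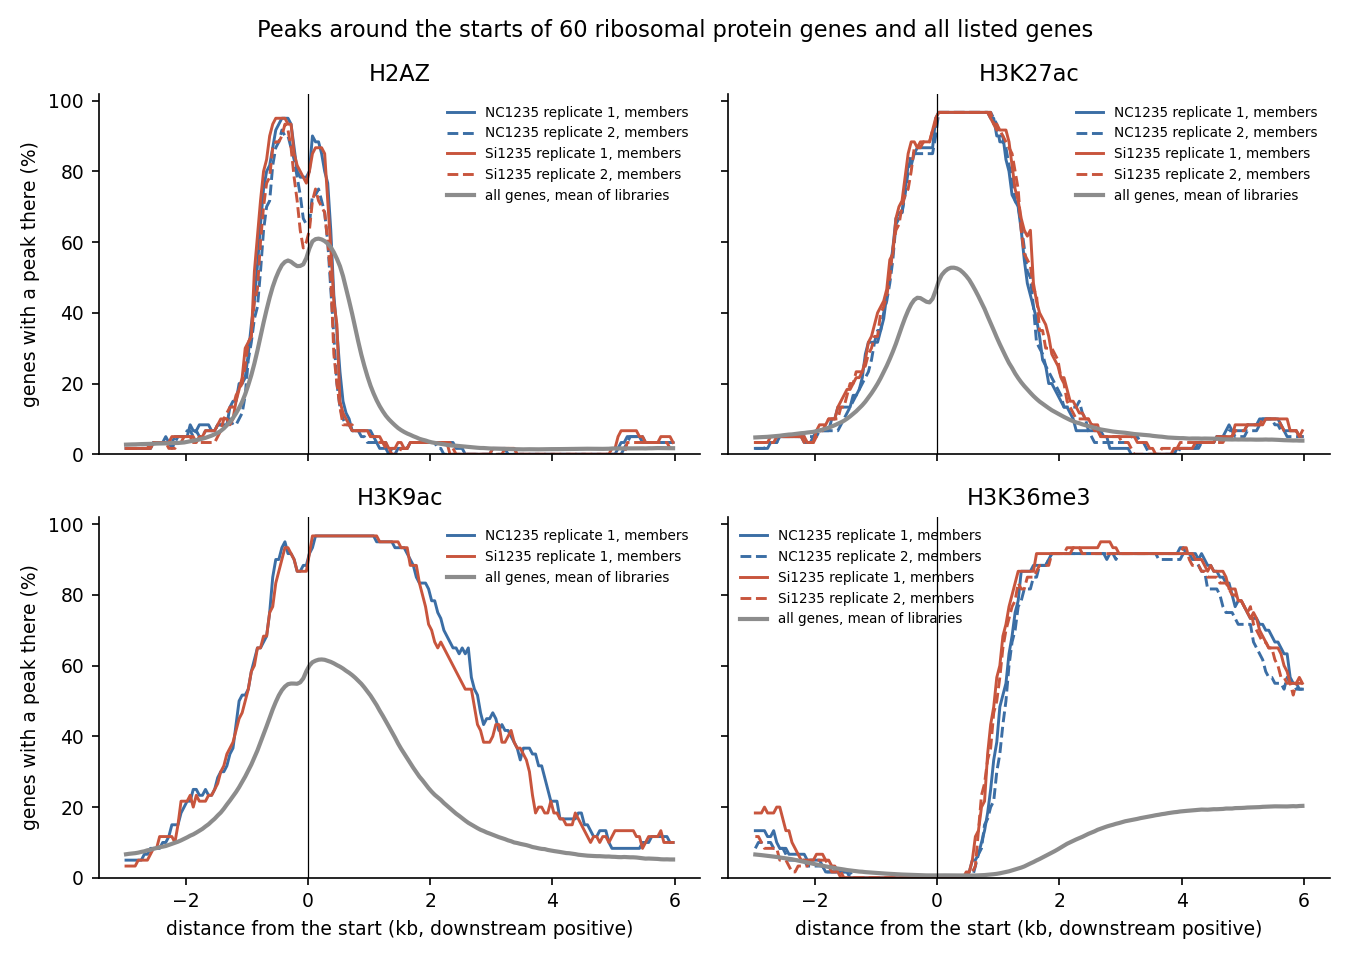
Percent of genes with a peak at each distance from the listed start (kb, downstream positive), in 50-base steps, for 60 ribosomal protein genes in each library (coloured lines, solid for replicate 1 and dashed for replicate 2) and for all 15811 genes with a listed start (grey, mean of libraries). H2AZ in the members is highest before the start, both acetyl marks after it, and H3K36me3 reaches 91.7% at 2025 bases.

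The greater H2AZ cover on the upstream side was seen gene by gene. The 1 kb before the start was covered by 75.3% and 68.7% on average in the NC1235 replicates and by 77.9% and 69.4% in the Si1235 replicates. The 1 kb after it was covered by 41.6%, 33%, 40.5% and 32.9%, in the same order. More cover before than after the start was found in 54, 51, 52 and 50 of the 60 members, whereas among all genes with H2AZ the shares were 39.6% to 41.2%. In the related lists, described further on, the shares with more cover before the start were 62.5% to 87.5% of 16 TOP and translation genes other than ribosomal proteins, 66.7% to 80% of 30 ribosome assembly genes and 100% of 4 X-linked ribosomal protein genes. Of 69 mitochondrial ribosomal protein genes they were 47.8% to 59.4%, of 14 RNA polymerase I genes 35.7% to 57.1%, and of 4 paralogs outside the symbol rule 50%. RPL41, which encodes the smallest protein of the large subunit, had 97.6% and 95.6% before its start in NC1235 against 97.5% and 89.2% in Si1235, with 0%, 15.2%, 0% and 0% after it. RPS6, the substrate of the S6 kinases, had 79.7%, 97.5%, 87.9% and 88% before and 36.4%, 37.8%, 49% and 42.2% after. Among the 32 members with a listed start and no other gene in the window, 26 to 30 had more cover before the start. H3K27ac cover was greater after the start, with averages of 96.2% to 96.4% after it and 69.2% to 72.7% before it. Over all genes with H3K27ac the averages leaned the same way, at 78.3% to 80.8% after and 60.2% to 63.4% before.

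**Figure D2:**
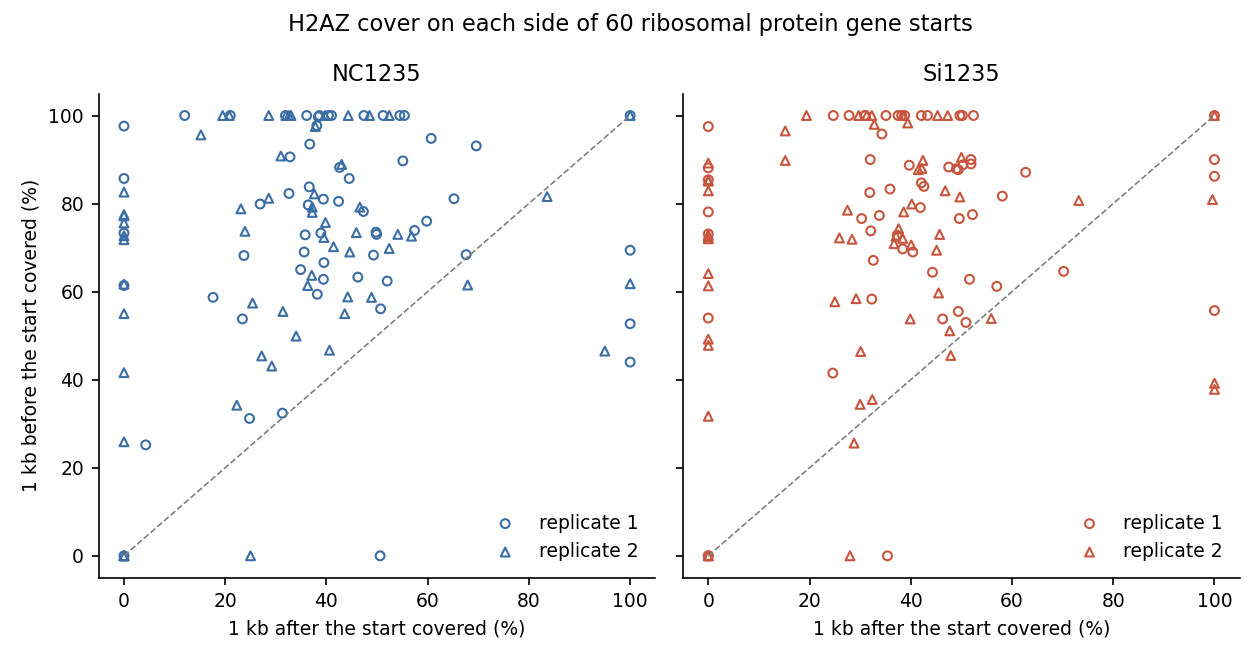
H2AZ cover of the 1 kb before the start (vertical axis, %) against the 1 kb after it (horizontal axis, %) for 60 ribosomal protein genes, 1 point per gene and library, by arm. Most points lie above the dashed line of equal cover, 54 and 51 of 60 for NC1235, and 52 and 50 for Si1235.

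Cover before the start exceeded that after it in all 4 libraries in 44 of the 51 members with a pyrimidine run of at least 5 bases and in 3 of the 9 without. It did so in no library in 6 members, which were RPL10L, RPL15, RPS15, RPS27A, RPS27L and RPS29. RPL10L had no H2AZ peak, and RPS29 was covered in full on both sides. All 6 were among the 9 members whose listed start has no pyrimidine run of 5 bases, and none was among the 51 that have one. The start used was the most upstream one listed, and RPS27A has other listed starts 775 and 785 bases further on, each with a run of 12 bases and H3K27ac cover of 100% in all 4 libraries. At the most upstream start of RPS27A the run has 3 bases and H3K27ac covered 79.1% to 89.5%. At RPL6 the later listed start was also the more covered one, but the runs were the other way round. Its most upstream start has a run of 5 bases, and H3K27ac covered 0% there in all 4 libraries. Its other listed start, 2157 bases further on, has a run of 2 bases. H3K27ac cover there was 68.9% and 70.1% in NC1235 against 69.65% and 65.05% in Si1235. The values of RPL6 given below are those of the most upstream start. RPS15 has 1 listed start, with H2AZ cover of 0% before it in all 4 libraries and 25% to 50.6% after it.

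The first comparison asked whether H2AZ at the member starts differed between the arms. Of the 77 members, 75 had mean H2AZ cover of at least 5% and were tested, and 0 passed limma with Benjamini-Hochberg adjustment over the 12841 genes tested, where 0.0% of all genes were called. The lowest adjusted p of a member was 0.761 by limma, and 5 members had an unadjusted p under 0.05, where 5.58% of all genes did. The Si1235 libraries both lay above the NC1235 libraries in 13 members (17.3%), against 21.2% of all genes, and both below in 11 (14.7%), against 9.72%. The median difference over the members, Si1235 minus NC1235, was 0.45 percentage points, against 1.35 over all genes tested. Leaving out 1 library turned its sign: it was -1.95 when NC1235 replicate 2 was dropped and -1.35 when Si1235 replicate 1 was, while it was -1.32 after quantile normalization. With 1 library fewer the arms are apart more often: 41 members (55.4%) were higher with NC1235 replicate 1 left out, against 51% of all genes, and 37 (49.3%) with Si1235 replicate 2 left out, against 53.3%. With NC1235 replicate 2 left out 30 (40.5%) were lower, against 31.1% of all genes, and with Si1235 replicate 1 left out 28 (37.3%), against 36.8%. In windows of 0.5 kb on either side, 8 members (10.7%) were higher, against 9.05% of all genes, and 15 (20%) lower, against 4.73%.

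RPL27A, a large-subunit gene, had the largest H2AZ difference of the 75 members tested. Its start window was covered by 28% and 28.25% in NC1235 and by 53.45% and 49.05% in Si1235, a difference of 23.1 points (95% interval 13 to 33.3, adjusted p = 0.761 by limma). The arms did not overlap. Before the start, cover was 31.2% and 34.2% in NC1235 against 76.6% and 72.2% in Si1235, and after it 24.8% and 22.3% against 30.3% and 25.9%. RPL36 came next (22.9 points) but its arms overlapped, with 38.6% and 0% against 57.2% and 27.2%. RPS21 had 52.3% and 36.35% against 65.45% and 64.85%, a difference of 20.8 points. RPL23A and RPS16 had differences of 18.4 and 17.6 points. At RPS16 NC1235 replicate 2 stood apart, with 0% beside 31.85% in replicate 1 and 33.05% and 33.95% in Si1235. In the other direction, RPL18 had 65.1% and 60.9% in NC1235 against 49.85% and 30.65% in Si1235, a difference of -22.8 points (adjusted p = 0.907 by limma). RPL13, RPS9, RPL6 and RPS18 had differences of -19.5, -15.2, -13.8 and -13.5 points, and at RPL13 the low value was that of Si1235 replicate 2, 23.9% beside 54.05% in replicate 1.

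H3K27ac at the starts was the next comparison. Again 75 members were tested and 0 passed limma with Benjamini-Hochberg adjustment, where 0.479% of 11274 genes did, 0.248% higher and 0.231% lower in Si1235. At an unadjusted p under 0.05 there were 7 members, where 13.6% of all genes reached it. The Si1235 libraries lay above the NC1235 libraries in 15 members (20%), against 22.8% of all genes, and below in 7 (9.33%), against 17.2%. The median difference was 0 points in members and over all genes. The NC1235 H3K27ac lists are the ones whose pileups were mostly not whole numbers, and the part of this in the differences was not tested. With NC1235 replicate 1 left out limma called 3 members (RPL24, RPL37 and RPS2), with NC1235 replicate 2 left out 4 (RPL27A, RPL3, RPLP2 and RPS2), and with Si1235 replicate 1 left out 2 (RPL4 and RPL8). Over all genes the same fits called 228 higher and 2 lower of 11261, 188 and 1 of 11277, and 4 and 184 of 11232. The 6 members called with an NC1235 library left out were all at 100%, the most that cover can reach, in both Si1235 libraries, and RPL4 and RPL8 were at 100% in both NC1235 libraries. Leaving out NC1235 replicate 1, NC1235 replicate 2, Si1235 replicate 1 and Si1235 replicate 2 in turn put 24, 25, 16 and 28 members higher (32%, 33.3%, 21.3% and 37.3%), against 36.2%, 31.1%, 29.5% and 41% of all genes. Lower were 12, 15, 17 and 13 (16%, 20%, 22.7% and 17.3%), against 24.5%, 27.9%, 36.1% and 23.6%.

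The largest H3K27ac difference was at RPLP1, a stalk protein that recruits elongation factors. Its window was covered by 49.95% in each NC1235 library and by 74.2% and 68.9% in Si1235, a difference of 21.6 points (95% interval 13.3 to 29.9, adjusted p = 0.135 by limma). The NC1235 libraries were alike and both Si1235 libraries were higher. H3K9ac, with 1 library per arm, covered 65.6% of the same window in NC1235 against 77.95% in Si1235. RPL34 had 53.35% and 50.8% in NC1235 against 71.65% and 63.15% in Si1235 (15.3 points). RPS28 had 82.8% and 82.95% against 100% and 90.8% (12.5 points), and RPS26 and RPL15 had differences of 8.62 and 6.15 points. RPS2, which lies next to SNHG9, had 95.8% and 94.6% in NC1235 against 100% in both Si1235 libraries, and its adjusted p of 0.125 by limma was the lowest of the members. In the other direction were RPS15, with 74.2% and 69.75% in NC1235 against 54.8% and 69.35% in Si1235 (-9.9 points), and RPL37A, with 91.4% and 87.3% against 78.2% and 81.15% (-9.68 points). RPL8 and RPS27L had differences of -4.8 and -3.55 points. In windows of 2.5 kb on either side, RPL8 had a difference of 1.31 points, and both Si1235 libraries lay above the NC1235 libraries in 33 of 76 members (43.4%), against 29.2% of all genes.

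**Figure D3:**
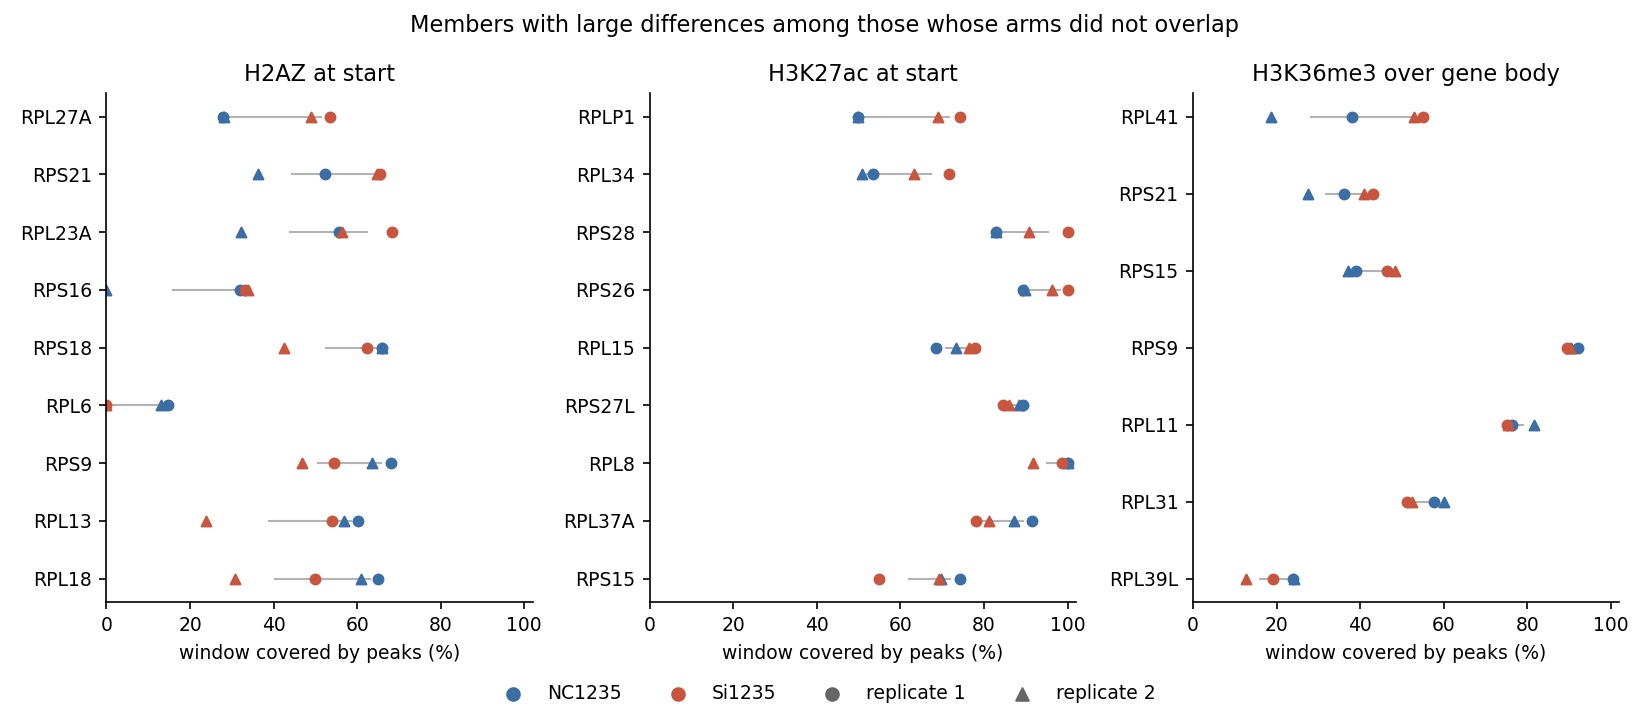
Percent of the window covered by peaks at members with large differences among those whose arms did not overlap, for H2AZ and H3K27ac at starts and H3K36me3 over gene bodies. Each point is 1 library (blue NC1235, red Si1235, circles replicate 1, triangles replicate 2), and the grey bar joins the arm means. RPL27A (23.1 points), RPLP1 (21.6 points) and RPL41 (25.7 points) head the panels.

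Genes of the stalk and members with known roles outside the ribosome were examined next. RPLP0, the stalk base, had H2AZ cover of 36.6% and 38.7% in NC1235 against 39% and 36.45% in Si1235, and its H3K27ac cover was 100% in all 4 libraries. RPLP2 had H3K27ac cover of 98.1% and 100% in NC1235 against 100% in both Si1235 libraries. RPSA, a small-subunit protein also known as the laminin receptor, had H2AZ cover of 72.4% and 64.7% against 74.9% and 65.6%. RPL5 and RPL11, which bind MDM2 when ribosome assembly fails, had H3K27ac differences of -0.825 and 4.1 points. RPL11 had H2AZ cover of 60.2% and 58.2% in NC1235 against 55.55% and 36% in Si1235, so the arms did not overlap, with the low value in Si1235 replicate 2. RPS14 and RPS19, whose loss causes anaemia, had H3K27ac differences of 0.7 and 0 points. Their H2AZ cover overlapped between arms, at 57.45% and 50.4% in NC1235 against 60.5% and 52.5% for RPS14 and at 77.7% and 55.9% against 75.1% and 55.25% for RPS19.

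H3K9ac reached far into the member genes. It covered a median of 68.3% of the gene body. The median was 13.8% over the 8770 genes with mean body cover of at least 5%, and 3.74% over all protein-coding genes. H3K9ac still lay on 46.7% (NC1235) and 40% (Si1235) of members 3025 bases after the start. The shares of all genes with a listed start, marked or not, were 12.5% and 11.8%. The members are short, with a median length of 5011 bases against 24190. The leading H3K9ac peaks were also wider, with medians of 3802.5 and 3550 bases in members and 2528 and 2447 bases over all genes with H3K9ac. The leading H3K9ac peak of the median member stood in the top 4.98% (NC1235) and 3.82% (Si1235) of its list by the authors' fold enrichment, against 11.3% and 11% over all such genes. H2AZ peaks stood lower, in the top 21.5% to 28.4%, against 14.6% to 17.4%.

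The peak names inside both H3K9ac lists read H3K6AC, and the sample labels were followed. Between the arms H3K9ac has no replicate and was not tested. Cover was higher in Si1235 at 13 member starts (16.9%, against 31.8% of all genes), lower at 26 (33.8%, against 41.6%) and equal at 38 (49.4%, against 26.6%). A difference of 20 points or more was found at 1 member in favour of Si1235, where 2.21% of all genes had one, and at 2 in favour of NC1235, where 3.89% did. RPL38 had 60.15% in NC1235 against 96.25% in Si1235. RPL6 had 21.7% and 0%, and RPL17 had 70.95% and 49.35%. These 3 genes were named after their values were seen.

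H3K36me3 lay over the bodies of most members. The median cover was 72.8%, against 40.6% over the 8453 genes with mean cover of at least 5% and 0.689% over all protein-coding genes, and 62 of 77 members had at least 50%. It was 80.7% in the other TOP and translation genes, 76.3% in the X-linked ribosomal protein genes, 67.9% in ribosome assembly genes and 52.4% in mitochondrial ribosomal protein genes. Among the highest were RPS19 (90.8%), RPS9 (90.6%), RPS10 (89.1%) and RPL37 (87.3%). The leading H3K36me3 peak of the median member stood in the top 0.84% to 1.2% of its list by the authors' fold enrichment, against 9.79% to 12.3% over all genes tested. Cover differed with length: the 6 members under 2 kb had a median of 37.3%, the 22 of 2 to 4 kb 69.2%, the 38 of 4 to 10 kb 81.9% and the 11 longer ones 40.7%. In RPS29 the first H3K36me3 peak lay 13478 to 13658 bases from the most upstream listed start.

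**Figure D4:**
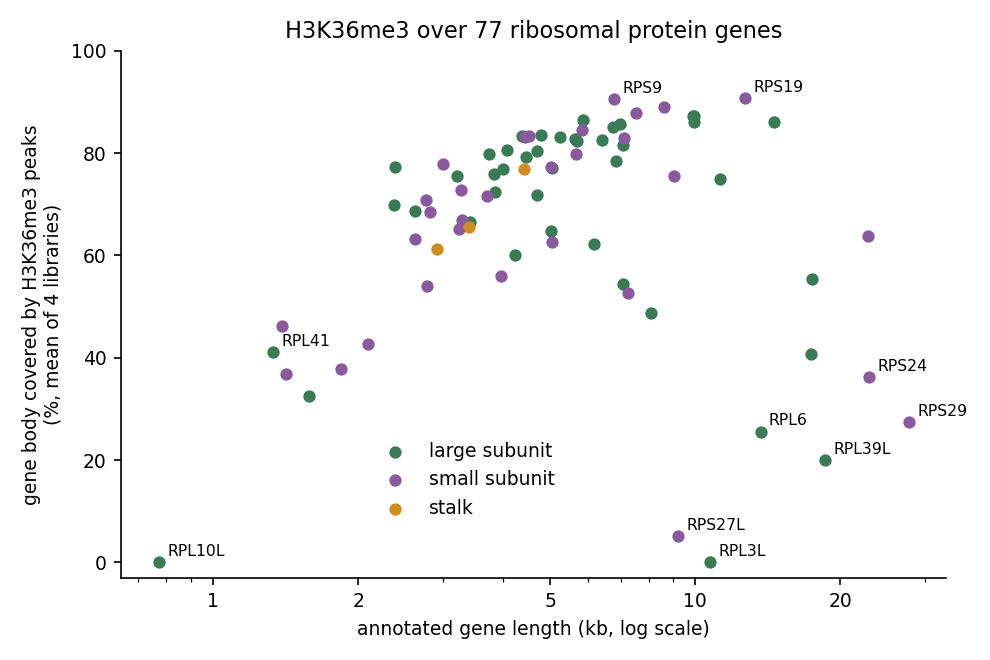
H3K36me3 cover of the gene body (%, mean of 4 libraries) against annotated length (kb, log scale) for the 77 ribosomal protein genes, by subunit. Cover is highest in genes of 4 to 10 kb, where the median is 81.9%, and RPL10L and RPL3L are at 0%.

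The set holds 4 paralogs of other ribosomal protein genes. RPL10L, a retrotransposed copy known from testis, had 0% cover of H2AZ, H3K27ac, H3K9ac and H3K36me3 in every library. RPL3L, a paralog known from striated muscle, had 0% H3K36me3 in all 4 libraries, while its window, which also holds MSRB1, had H3K27ac cover of 35.9% to 46.4%. RPS27L, a p53 target, had promoter marks (H3K27ac 84.6% to 89.25%) but H3K36me3 cover of 6.19% and 0% in NC1235 against 11.9% and 2.46% in Si1235. RPL39L, also known from testis, had H3K27ac cover of 68.8% to 71.65% and H3K36me3 cover of 23.8% and 24.2% in NC1235 against 19.3% and 12.7% in Si1235. With RPL6 (25.6%) these were the 5 lowest of the set for H3K36me3.

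Between the arms, 75 members were tested for H3K36me3 over the body and 0 passed limma with Benjamini-Hochberg adjustment, where 0.0% of 8453 genes did. The lowest adjusted p was 0.518 by limma, and 4 members had an unadjusted p under 0.05, where 7.68% of all genes did. The Si1235 libraries lay above the NC1235 libraries in 27 members (36%), against 20.3% of all genes, and below in 4 (5.33%), against 13.7%. The median difference was 1.95 points in members and 0.71 over all genes. With NC1235 replicate 1, then replicate 2, then Si1235 replicate 1, then replicate 2 left out, the counts above were 41, 35, 37 and 48 (55.4%, 46.7%, 50% and 64%), against 60.8%, 21.9%, 22.4% and 46.4% of all genes. Those below were 8, 13, 17 and 11 (10.8%, 17.3%, 23% and 14.7%), against 14.6%, 48.9%, 35.9% and 16.2%. Over bodies from 1 kb after the start, 16 of 70 members were above (22.9%), against 20% of all genes. After quantile normalization the median was 1.12 points in members and -0.52 over all genes. The count above then was 13 (17.3%), against 22.4% of all genes, and the count below was 3 (4%), against 27.7%. The median of the members stayed between 0.355 and 2.87 points under every alternative run, but it was below that of all genes from 1 kb after the start (0.355 against 0.684) and without NC1235 replicate 1 (2.03 against 3.58). The median background of weak peaks was 2.33 and 1.65 reads in the NC1235 lists and 1.9 and 0.788 reads in the Si1235 lists, and its part in the difference was not tested.

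RPL41 led this comparison with cover of 38% and 18.7% in NC1235 against 55.1% and 52.9% in Si1235, a difference of 25.7 points (95% interval 6.32 to 45, adjusted p = 0.518 by limma). Both Si1235 values exceeded both NC1235 values, and NC1235 replicate 2 was the lowest. RPS21 had 36.1% and 27.4% against 43.2% and 40.8% (10.2 points), and RPS15 had 38.9% and 37% against 46.3% and 48.2% (9.33 points). The 4 members with lower values in Si1235 were RPL39L, RPL31, RPL11 and RPS9, at -8.07, -7.05, -3.73 and -1.4 points. RPL31 had 57.6% and 60% in NC1235 against 51.2% and 52.4% in Si1235.

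The start-side edge of H3K36me3 was also measured. In 58 members with a listed start and a peak in every library, the first H3K36me3 base in the body lay at a median of 1024 and 1116 bases from the start in NC1235 and of 926 and 952 bases in Si1235. Over the 6824 genes tested, the medians were 3496 and 3890 bases in NC1235 against 3258 and 3486 bases in Si1235. The edge lay within 1 kb of the start in 26 and 18 members in NC1235 and in 35 and 31 in Si1235. Both Si1235 edges lay nearer than both NC1235 edges in 26 members (44.8%), against 28.6% of all genes, and farther in 2 (3.45%), against 13.2%. Within replicate 1 the Si1235 edge was the nearer one in 43 of 58 members (74.1%, against 56% of all genes), and within replicate 2 in 44 (75.9%, against 62.3%). The median shift was -107 bases in members and -116 over all genes. No test was run on this measure, which was added after the covers were seen and rests on the same peaks.

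At RPL28 the edge lay 1029 and 1284 bases from the start in NC1235 against 667 and 721 bases in Si1235. At RPL41, 1335 bases long, it lay at 820 and 1054 bases against 599 and 629, and at RPL12 at 849 and 943 against 582 and 646. RPL11, with 1195 and 929 bases against 1253 and 1248, and RPS9, with 536 and 650 against 708 and 668, were the 2 in the other direction. RPS19, with the highest cover, had 661 and 756 bases against 618 and 719, so its arms overlapped. RPL28 and RPL12 were named after their values were seen.

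**Figure D5:**
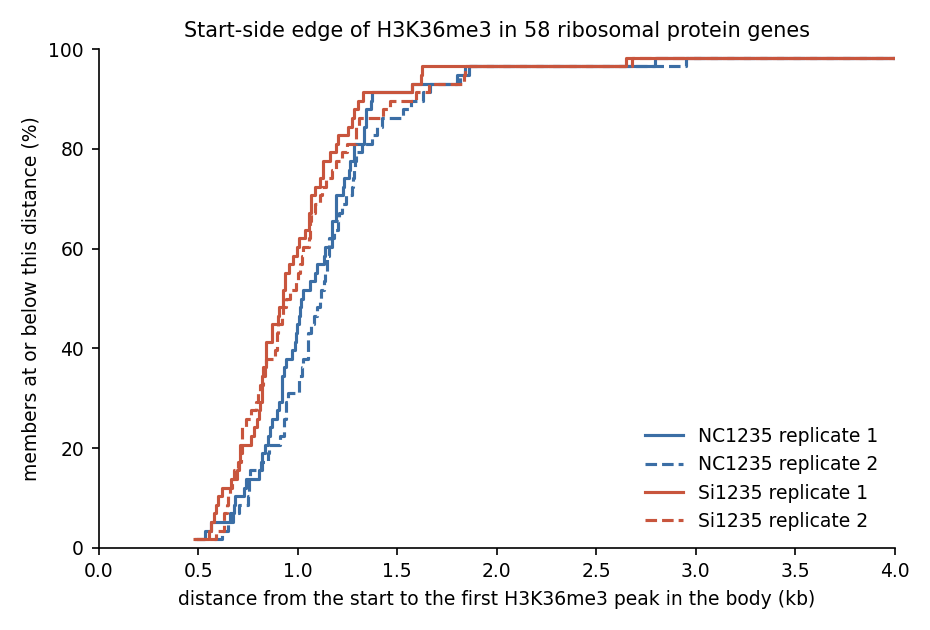
Cumulative percent of 58 ribosomal protein genes (vertical axis) whose first H3K36me3 peak in the body begins within a given distance of the start (horizontal axis, kb), by library. The Si1235 curves (red) lie to the left of the NC1235 curves (blue) around 1 kb, with 60.3% and 53.4% of members within 1 kb against 44.8% and 31%.

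The related gene lists, chosen with earlier results of these data known, gave no limma call for any of the 3 tested marks. Over all 8453 genes tested, H3K36me3 was higher in both Si1235 libraries in 20.3% and lower in 13.7%, with a median difference of 0.71 points. Among 23 genes of other TOP transcripts and translation factors, the mark was higher in 9 (39.1%) and lower in 2 (8.7%). Their median difference was 1.4 points. NAP1L1 and EEF1D differed by 10.8 and 10.5 points. Among 32 tested ribosome assembly genes the counts were 10 (31.2%) and 2 (6.25%), with a median of 2.66 points, and RRP12 and BOP1 differed by 20.3 and 19.6 points. Of 14 RNA polymerase I genes, 2 were higher (14.3%) and 1 lower (7.14%), and TAF1B and TAF1D differed by -5.84 and 5.73 points. Of 70 mitochondrial ribosomal protein genes, which serve a separate ribosome, 16 (22.9%) were higher and 5 (7.14%) lower, with a median of 1.17 points. All 4 X-linked ribosomal protein genes were tested, 3 were higher (75%) and 0 lower, and RPS4X and RPL10 differed by 5.55 and 5.39 points. Of the 4 paralogs outside the symbol rule, 0 were higher and 1 lower (25%), and RPL26L1 and RPL36AL differed by 17.1 and -7.3 points.

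At the starts the same lists were counted for both promoter marks. For H2AZ, where 21.2% of all genes were higher in both Si1235 libraries and 9.72% lower, 7 of 22 TOP and translation genes were higher (31.8%) and 2 lower (9.09%), and NACA and EIF3K differed by 15.1 and 14.4 points. Of 35 assembly genes 5 were higher (14.3%) and 4 lower (11.4%), with BOP1 and NOB1 at 20.6 and 9.28 points. Of 15 RNA polymerase I genes 5 were higher (33.3%) and 4 lower (26.7%), with UBTF and RRN3 at 60.5 and -19.3 points. Of 76 mitochondrial genes 17 were higher (22.4%) and 9 lower (11.8%), with MRPL32 and MRPL38 at -17.9 and 16.2 points. Among the 4 X-linked ribosomal protein genes 0 were higher and 1 lower (25%), with RPL36A and RPS4X at -14.3 and -13.3 points. Their median difference was -7.15 points. Among the 4 paralogs outside the symbol rule 1 was higher (25%) and 0 lower, with RPL22L1 and RPL26L1 at 12.5 and -1.68 points. For H3K27ac, where the shares of all genes were 22.8% and 17.2%, 4 of the 22 TOP and translation genes were higher and 4 lower (18.2% each), with EIF3F and NACA at -17.7 and -10.1 points. Of the assembly genes 12 were higher (34.3%) and 2 lower (5.71%), with EFL1 and BOP1 at 18.9 and 15.8 points. Of the RNA polymerase I genes 2 were higher (13.3%) and 0 lower, with POLR1F and POLR1B at -10.3 and 9.3 points. Of the mitochondrial genes 24 were higher (31.6%) and 14 lower (18.4%), with MRPS14 and MRPS10 at 25.8 and 19.3 points. Among the X-linked genes 0 were higher and 1 lower (25%), with RPL10 and RPS4X at 5.7 and -1.15 points. Among the outside paralogs 1 was higher (25%) and 0 lower, with RPL22L1 and RPL26L1 at 10.1 and 3.35 points. Median H3K9ac cover of the body was 62.9% in the X-linked counterparts, while that of the TOP and translation genes was 31.3%, of the assembly genes 10.5% and of the mitochondrial genes 16.8%. Median lengths were 5136 bases for the X-linked genes, 13785 for the TOP and translation genes and 18351 for the assembly genes.

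Small nucleolar RNA genes, which guide the modification of ribosomal RNA and lie in introns, were annotated in the bodies of 27 members (35.1%), 58 of them in all, against 2.63% of all protein-coding genes. Median H3K36me3 cover was 75.9% in these hosts and 71.7% in the other 50 members, and median H3K27ac cover at the start was 97.6% and 86.8%. Median lengths were 5011 and 4917 bases.

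ChIRP peaks were found in the start window of 8 members, RPL24, RPL31, RPL36, RPLP0, RPS18, RPS20, RPS27A and RPS29 (10.4%, exact binomial 95% interval 4.59% to 19.4%), against 12.6% of all genes. In the bodies they were found in 23 members (29.9%), against 65.3% of all genes. Summed over the bodies, they covered 2.31% of the members' length and 1.92% of all genes' length. There is 1 ChIRP library and no control, so no difference was tested.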

How the data were processed

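ChIP-seq peak lists of HCC1954 cells (15 lists, from 17 samples, 2 of them inputs with no list used here) were the data. The submitters' processing notes name Bowtie2 2.2.9, hg38, MACS2, HTSeq 2.0.3 and DESeq2 1.22.2, with no settings, control or order. The deposited lists hold, for each peak, the authors' fold enrichment (a ratio to local background) and its p-value and q-value as −log10, and the smallest −log10 q was 2.00029. The deposited score column was not used. Read pileups and the background were computed from fold enrichment and p-value, assuming a Poisson test, at the 1500 weakest peaks of each list, and called whole where a whole number gave −log10 p within 0.002. Depth is unknown, so arms were compared only by the extent of called peaks. Fold enrichment served only to rank peaks within a list.

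Genes came from RefSeq (GRCh38.p14). The members and gene lists were chosen with earlier results of these data known. The start was the most upstream RefSeq promoter listed (60 members) or, for 17 members, the gene end with more cover of the other promoter marks. That rule picked the gene end that matches the listed strand at all 58 members and 92.7% of all genes where it could be checked for H2AZ. For 1 member the rule gave different ends for different marks. Cover was tested with limma 3.58.1 (R 4.3.3, intensity trend, no replicate term) over autosomal and X genes with mean cover of at least 5%, with Benjamini-Hochberg adjustment at 0.05, after tests on simulated data. For each tested mark the 5 largest differences per direction among members whose arms did not overlap are named, with the 5 lowest members, the stalk, paralogs and well-known members; a few genes that this rule names are not reported here. Alternatives were other windows, filters, peak thresholds, peak numbers, normalization, models, starts and leaving out each library.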

Additional observations from a re-analysis of the deposited data

How the results depend on the processing

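No member passed limma for H2AZ or H3K36me3 under any alternative that kept all libraries. The members named for their large differences were picked because their arms did not overlap. Leaving out 1 library could therefore not turn their direction, and neither could the replicate block, the intensity trend or the cover filters. Under other windows, starts, peak thresholds, peak numbers and normalization they kept it, except RPL8 (1.31) for H3K27ac in 2.5 kb windows. The H2AZ median was -1.32 after quantile normalization and ranged from -1.95 to 4.86 with 1 library left out. For H3K27ac, 1 member passed after quantile normalization (RPS2), and 0 to 4 with 1 library left out. Over all genes, quantile normalization called 23 higher and 20 lower of 11274 for H3K27ac, and 43 and 16 of 8453 for H3K36me3. A replicate block called 0 members for each mark. It also called 0 of all 12841 genes tested for H2AZ, 11274 for H3K27ac and 8453 for H3K36me3. Its 0 members therefore do not set them apart from other genes. The replicate numbers do not pair the libraries by label: deviations of same-numbered libraries correlated at 0.207 (H2AZ), 0.0731 (H3K27ac) and 0.24 (H3K36me3) across genes. H2AZ arms lay apart upward in 8 members in 0.5 kb windows (10.7%, against 9.05% of all genes), with 15 downward (20%, against 4.73%). The upward count was 8 when only members with a listed start were kept, beside 21.2% of all genes tested. H3K27ac counts in 0.5 kb windows were 6 higher (8%, against 11.4% of all genes) and 2 lower (2.67%, against 12%). In 2.5 kb windows 33 were higher (43.4%, against 29.2%) and 7 lower (9.21%, against 18.7%), with a median of 1.83 points. After quantile normalization 7 were higher (9.33%, against 18.9%) and 10 lower (13.3%, against 20.6%). H3K36me3 counts were 16 higher over bodies from 1 kb after the start (22.9%, against 20% of all genes) and 13 after quantile normalization (17.3%, against 22.4%). With 1 library left out, 2 libraries face 1 and the lone one is assumed to vary like the others. Higher H2AZ counts then ranged from 16 to 41 (21.6% to 55.4%, against 25.5% to 53.3% of all genes). Lower ones ranged from 11 to 30 (14.9% to 40.5%, against 12.8% to 36.8%). H3K27ac counts were 16 to 28 (21.3% to 37.3%, against 29.5% to 41%) and 12 to 17 (16% to 22.7%, against 23.6% to 36.1%). H3K36me3 counts were 35 to 48 (46.7% to 64%, against 21.9% to 60.8%) and 8 to 17 (10.8% to 23%, against 14.6% to 48.9%). The H3K27ac medians ranged from 0 to 0.325. The median H3K9ac cover at starts was 100% in 0.5 kb windows. The causes were not tested. The start choices, and the stricter peaks for the H2AZ side and the H3K36me3 edge, were chosen after seeing the data. Depth is unknown, so peaks missed for lack of reads cannot be told from absent marks.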
